A study of Homo sapiens with 24 samples.

Results

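The genes described here are the guanylate-binding proteins GBP1, GBP2, GBP3, GBP4 and GBP5, measured on microarrays of T-47D cells, an established luminal breast cancer line. Members were taken as every probe set that the array's annotation pairs with 1 of these 5 symbols, which gave 6 probe sets of 28536 in all and of the 21042 with a gene symbol. GBP2 has 2 probe sets of its own (7917532 and 7917530), and GBP3, GBP4 and GBP5 have 1 each. The sixth, 7917516, is paired with GBP1, GBP3 and the pseudogene GBP1P1 and is the only one that carries GBP1, so its values cannot be assigned to GBP1 alone. It is called the shared GBP1 probe set. The family was selected on its measured response to heregulin (HRG) and on the loss of part of that response under P-Rex1 silencing, so those values are given as a description with a standard error and no p-value.

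There were 8 groups of 3 arrays, each array from a separate biological replicate. Cells had been transiently transfected with P-Rex1 RNAi duplex #1, with P-Rex1 RNAi duplex #2 or with a non-target control duplex (NTC), or were untransfected parental cells. All had been serum starved, and each was given HRG, a growth factor ligand of the ErbB receptors, at 20 ng/ml or the PBS vehicle for 6 h. P-Rex1 is an exchange factor that loads the small GTPase Rac with GTP, and the study asked which HRG-regulated transcripts depend on it. Both duplexes are siRNAs to 1 target in 1 cell line.

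Guanylate-binding proteins are large GTPases of the dynamin superfamily that bind and hydrolyze guanine nucleotides and assemble on membranes. Interferon-gamma is their classical inducer, through the receptor-bound kinases JAK1 and JAK2 and the interferon regulatory factor IRF1. They are best known for coating intracellular bacteria and parasite vacuoles and for feeding ligands to caspases of the inflammasome. GBP1 has also been studied as a factor induced by inflammatory cytokines and growth factor receptors in endothelial and tumor cells. The genes lie next to each other on chromosome 1, in the order GBP3, GBP1, GBP2, GBP7, GBP4, GBP5 and GBP6 in the RefSeq annotation of GRCh38.p14.

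RefSeq promoter sequence was at hand for GBP1, GBP3 and GBP4, which are 3 of the 5 genes. Each window ran from 250 bases before to 50 bases after the annotated start, and it was searched on both strands for 5 motifs. The element through which interferon factors act (ISRE, searched as its core of 2 GAAA copies with 2 bases between them) was in all 3 windows and in 3.57% of 35116 promoters of the same length. Its matches lie on the strand opposite to the gene, so that each copy reads TTTC when the gene's strand is printed, as in the following 30-base stretches with the match in capitals (all on the minus strand of GRCh38.p14; GBP1 at chr1:89065316-89065345, GBP3 at chr1:89022845-89022874, GBP4 at chr1:89198927-89198956).
GBP1: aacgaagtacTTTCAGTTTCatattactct
GBP3: aaagaagtacTTTCAGTTTCattaggctct
GBP4: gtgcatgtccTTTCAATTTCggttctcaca
The GBP1 and GBP3 stretches were identical at 25 of 30 aligned bases and held a common run of 19 bases, whereas GBP4 matched GBP1 at 16 of 30 bases and GBP3 at 16 of 30. Counted from -1 just before the annotated start and 1 at the start, the match begins at position -127 in GBP1, 3 in GBP3 and -4 in GBP4.

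The GBP1 promoter is printed at greater length because the shared GBP1 probe set carried the largest change in the family. The 250 bases before the GBP1 start (chr1:89065209-89065458, minus strand, GRCh38.p14) are shown with a CArG box and, further along, the ISRE core in capitals.
GBP1 promoter: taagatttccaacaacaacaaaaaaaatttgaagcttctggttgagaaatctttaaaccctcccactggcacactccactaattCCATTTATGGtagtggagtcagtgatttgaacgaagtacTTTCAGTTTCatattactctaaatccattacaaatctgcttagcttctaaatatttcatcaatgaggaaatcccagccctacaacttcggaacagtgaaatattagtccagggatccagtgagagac
The CArG box is the motif bound by serum response factor. It begins at position -166 in GBP1, was in neither of the other 2 GBP windows and was in 1.29% of all promoters. The gamma-activated sequence GAS (TTCNNNGAA, in 7.66% of promoters) and the AP-1 element (TGANTCA, in 7.71%) each had a match in the GBP3 window only, and the NF-kappa B motif (in 5.91%) had one in the GBP4 window only. These are matches of letters, and no binding was measured.

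The arrays were alike in overall level, with array medians of 6.04 to 6.18 log2 units, and the first component of a principal component analysis, which held 53.6% of the variance, ran with HRG. Along the second (10.9%), 4 arrays stood apart: #1 vehicle replicate 2, #2 HRG replicate 3, NTC HRG replicate 3 and parental vehicle replicate 3. PREX1, the targeted gene, checked the labels: without HRG it averaged 8.99 ± 0.09 log2 units with #1 and 9.00 ± 0.03 with #2, against 10.42 ± 0.09 in NTC and 10.60 ± 0.02 in parental cells (SD, n = 3 each). With HRG it averaged 8.53 ± 0.08 with #1 and 8.73 ± 0.14 with #2, against 9.45 ± 0.13 in NTC and 9.55 ± 0.08 in parental cells, so the silenced cells were the lowest under both conditions. All 14 luminal epithelial markers lay above the 25% quantile of every array, and below it on all 24 arrays lay 3 of 11 leukocyte markers (PTPRC, MS4A1 and CD163), 2 of 9 endothelial markers (PECAM1 and EMCN) and 3 of 10 fibroblast markers (DCN, FAP and POSTN), while the others lay above it on some or all arrays. The summed level of the fibroblast markers, of which LUM was called higher with HRG in parental cells, was higher with HRG in all 4 cell groups without overlap: 9.22 to 9.36 log2 units against 8.91 to 9.15 with vehicle (#1), 8.82 to 8.95 against 8.73 to 8.78 (#2), 9.15 to 9.21 against 8.91 to 8.97 (NTC) and 9.07 to 9.27 against 8.90 to 8.99 (parental). Under HRG it was thus lowest with #2 and not lower with #1 than in the controls. The endothelial sum was higher with HRG without overlap in #2 (8.27 to 8.29 against 8.20 to 8.25), NTC (8.26 to 8.37 against 8.13 to 8.22) and parental cells (8.26 to 8.30 against 8.15 to 8.25), and the leukocyte sum in NTC cells (8.407 to 8.540 against 8.299 to 8.399). These sums weigh the brightest markers most. The median HRG difference over the 10 fibroblast markers was -0.11 with #1, 0.03 with #2, 0.10 in NTC and -0.05 in parental cells. Over the 9 endothelial markers it was -0.07 with #1, 0.01 with #2, 0.10 in NTC and -0.004 in parental cells. The cultures were of 1 cell line, and whether these marker sums bear on the GBP values was not tested.

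The shared GBP1 probe set had one of the largest differences between HRG and vehicle on the array. P-Rex1 silencing left 66.6% of that response with #1 and 46.0% with #2 on the log2 scale. Over the 448 probe sets called higher with HRG in both NTC and parental cells, the median was 83.6% (#1) and 54.2% (#2). Both GBP2 probe sets had smaller differences that were likewise larger in NTC and parental cells than with #1 or #2. The differences of GBP3, GBP4 and GBP5 ran from -0.10 to 0.17.

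With HRG, the shared GBP1 probe set read 7.70, 7.98 and 8.07 log2 units in replicates 1 to 3 of the #1 cells, against 5.85, 5.72 and 5.93 with vehicle. In the #2 cells it read 7.47, 7.36 and 7.68 with HRG, against 6.13, 5.89 and 6.17 with vehicle. The HRG and vehicle arrays of each silenced group did not overlap, and the 6 HRG arrays lay below every HRG array of the control cells. In NTC cells it read 9.07, 9.53 and 9.79 with HRG, against 6.29, 6.13 and 6.35 with vehicle. In parental cells it read 9.07, 8.96 and 9.54 with HRG, against 6.11, 6.35 and 5.94 with vehicle. The level with HRG was thus higher by 2.08 ± 0.16 log2 units (SE, n = 3 arrays against 3) with #1, a 4.24-fold difference, and by 1.44 ± 0.16 (2.71-fold) with #2. The difference was 3.20 ± 0.16 (9.21-fold) in NTC cells and 3.05 ± 0.16 (8.29-fold) in parental cells, each the 3rd largest of 21042 probe sets.

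**Figure D1:**
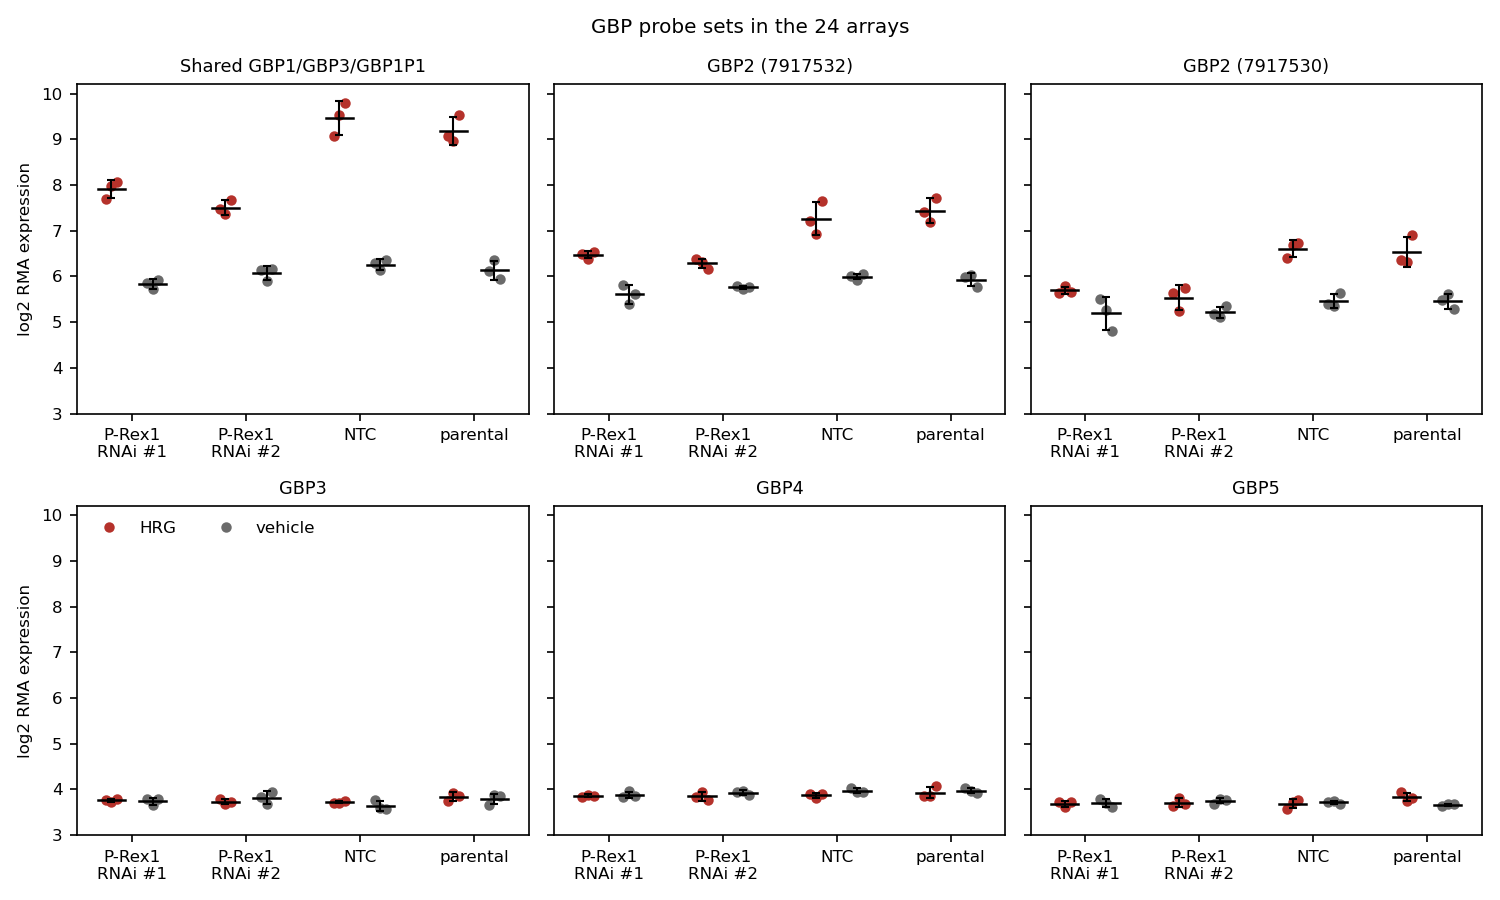
Log2 RMA expression (y axis) of the 6 GBP probe sets in P-Rex1 RNAi #1, P-Rex1 RNAi #2, NTC and parental cells, with HRG (red) and vehicle (gray). Points are arrays, and bars are the mean ± SD of 3; the shared GBP1 probe set reaches 9.79 in NTC cells with HRG, the GBP2 probe sets reach their highest arrays in the HRG-treated controls too, and the points of GBP3, GBP4 and GBP5 lie in 1 narrow band each.

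GBP2, an interferon-inducible GTPase of the same family, has 2 probe sets that gave the same picture at smaller size. Probe set 7917532 read 6.48, 6.39 and 6.54 with HRG in the #1 cells, against 5.81, 5.40 and 5.63 with vehicle. In the #2 cells it read 6.38, 6.31 and 6.17 with HRG, against 5.80, 5.73 and 5.76 with vehicle. No vehicle array of the silenced cells reached the lowest of their HRG arrays, although the distance was small. In NTC cells it read 7.22, 6.93 and 7.64 with HRG, against 6.00, 5.93 and 6.05 with vehicle. In parental cells it read 7.41, 7.19 and 7.72 with HRG, against 5.99, 6.04 and 5.76 with vehicle. The HRG difference was 0.86 ± 0.14 log2 units with #1 (1.82-fold), 0.52 ± 0.14 with #2 (1.44-fold), 1.27 ± 0.14 in NTC cells (2.41-fold) and 1.51 ± 0.14 in parental cells (2.85-fold; SE, n = 3 against 3 each). NTC HRG replicate 3, one of the arrays that stood apart, was the highest of its group, and the NTC difference was 1.08 without it.

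GBP2 probe set 7917530 read 5.64, 5.79 and 5.66 with HRG in the #1 cells, against 5.52, 5.26 and 4.81 with vehicle, and these vehicle arrays spanned more than any other group of this probe set. In the #2 cells it read 5.63, 5.24 and 5.74 with HRG, against 5.18, 5.12 and 5.35 with vehicle, and the groups overlapped. In NTC cells it read 6.41, 6.68 and 6.74 with HRG, against 5.41, 5.35 and 5.63 with vehicle, and in parental cells 6.35, 6.33 and 6.90 with HRG, against 5.48, 5.61 and 5.28 with vehicle. Both control groups separated fully by treatment. The HRG differences were 0.50 ± 0.16 with #1, 0.32 ± 0.16 with #2, 1.15 ± 0.16 in NTC and 1.07 ± 0.16 in parental cells (SE). Without #1 vehicle replicate 3, the lowest array of its group, the #1 difference was 0.31.

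GBP3, GBP4 and GBP5, which are interferon-inducible family members too, were dim throughout. Their 3 probe sets lay below the 25% quantile of every one of the 24 arrays, a quantile of 4.27 to 4.43 log2 units. GBP3 spanned 3.57 to 3.94 with a median of 3.75, GBP4 spanned 3.76 to 4.07 with a median of 3.90, and GBP5 spanned 3.57 to 3.93 with a median of 3.72 over all arrays. At this signal a change in transcript number may not be visible on the array. The relatives GBP6 and GBP7, which are no members here, likewise spanned only 0.33 and 0.53 log2 units. Since GBP3's own probe set stayed between 3.69 and 3.93 on the 12 HRG arrays, the values of the shared GBP1 probe set had no counterpart there, but levels of different probe sets cannot be set against each other.

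**Figure D2:**
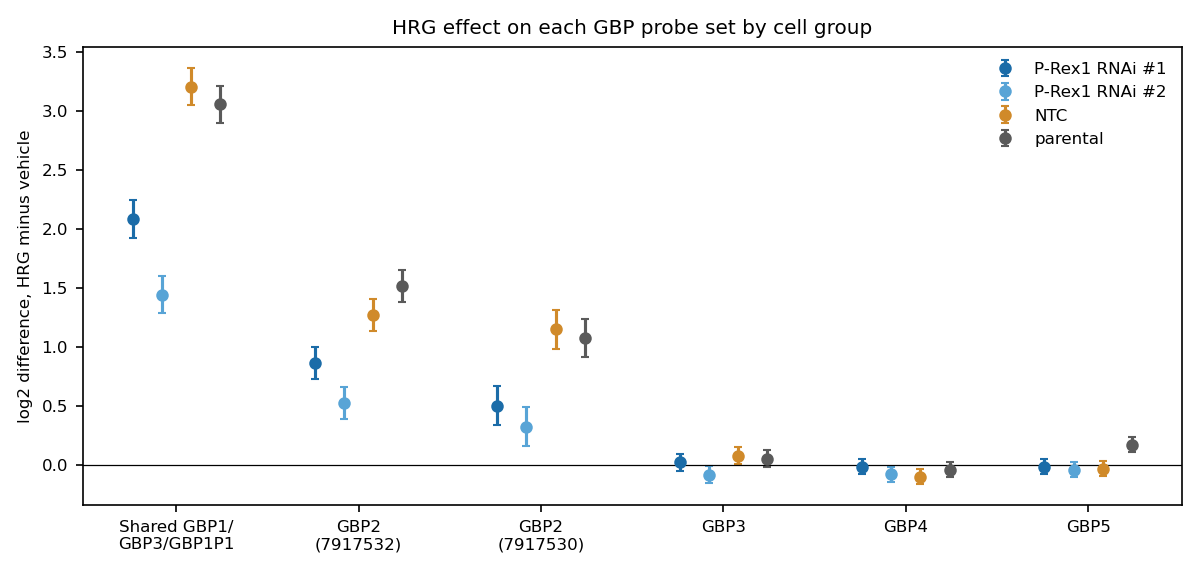
Log2 difference between HRG and vehicle (y axis) for each GBP probe set in P-Rex1 RNAi #1, P-Rex1 RNAi #2, NTC and parental cells, with bars for the standard error (3 arrays against 3). The shared GBP1 probe set stands at 2.08 with #1 and 1.44 with #2, against 3.20 in NTC and 3.05 in parental cells, and GBP3, GBP4 and GBP5 lie between -0.10 and 0.17.

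A probe set was called when its adjusted p in limma was below 0.05 and its fold change above 1.5. In the contrasts that served to choose the family, the counts are a description. Of the 6 GBP probe sets, 2 were called higher with HRG in #1 cells (2.52% of all probe sets), 1 in #2 cells (1.07%), 3 in NTC cells (2.64%) and 3 in parental cells (2.86%), and none was called lower in parental cells (2.41%). The shared GBP1 probe set was the one called in all 4. The median HRG difference over the 6 was 0.62 in parental cells, against -0.03 over all probe sets. The HRG effect was called smaller than in the mean of NTC and parental cells for 1 of the 6 with #1 (0.0903% of all probe sets called lower) and for 3 of the 6 with #2 (0.613%). Against NTC cells alone these counts were 1 with #1 (0.0950% of all probe sets called lower) and 2 with #2 (0.618%), and against parental cells alone 0 with #1 (0.0570%) and 2 with #2 (0.585%). The shared GBP1 probe set thus lost its #1 call with parental cells as the only control, and GBP2 7917530 lost its #2 call with either control alone. GBP2 7917530 also lost its #2 call without #2 vehicle replicate 3 or without #2 HRG replicate 2, and with #1 the count was 2 without NTC HRG replicate 2 or without #1 vehicle replicate 3.

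The difference in HRG effect from the controls, in log2 units, was -1.05 ± 0.19 with #1 and -1.69 ± 0.19 with #2 for the shared GBP1 probe set (SE). For GBP2 probe set 7917532 it was -0.53 ± 0.17 with #1 and -0.87 ± 0.17 with #2, and for 7917530 it was -0.61 ± 0.20 with #1 and -0.79 ± 0.20 with #2. As a share of the control log2 response, 61.9% (#1) and 37.7% (#2) was left for GBP2 7917532, and 45.1% (#1) and 29.0% (#2) for 7917530. Over the 448 probe sets called higher in both NTC and parental cells, the median share left was 83.6% with #1 (quartiles 71.0% to 95.9%) and 54.2% with #2 (quartiles 38.7% to 71.2%). With #1 all 3 responding GBP probe sets, 2 of them of GBP2, were below the lower quartile. With #2 the shared GBP1 probe set lay inside the quartiles and the GBP2 ones below them. Since the family was chosen for such a loss, these positions are a description. In level under HRG, the shared GBP1 probe set was 1.41 ± 0.14 log2 units lower with #1 and 1.82 ± 0.14 lower with #2 than the mean of the HRG-treated controls.

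The remaining comparisons were not themselves used to choose the family and were tested. They share arrays with the contrasts that were used. The differences in HRG effect between the duplexes, or between the control groups, are differences of those contrasts. Their p-values are thus not independent of the choice. The first comparison was whether the duplexes differed from each other. The HRG effect on the shared GBP1 probe set was smaller with #2 than with #1 by 0.64 log2 units (95% interval of the difference -1.11 to -0.18), a difference that did not pass the correction in limma (adjusted p = 0.485). For GBP2 the difference in effect was -0.34 (-0.74 to 0.07, adjusted p = 0.722) at probe set 7917532 and -0.18 (-0.66 to 0.30, adjusted p = 0.890) at 7917530. No GBP probe set was called here, where 0.0618% of all probe sets were, and 1 of the 6 had an unadjusted p below 0.05. Under HRG the #2 arrays of the shared GBP1 probe set (7.36 to 7.68) all lay below the #1 arrays (7.70 to 8.07), which gave an exact two-sided permutation p of 0.1, the smallest that 3 arrays against 3 allow. Neither that level difference (-0.41 ± 0.16, adjusted p = 0.166; 0.413% of probe sets called) nor the one without HRG (0.23 ± 0.16, adjusted p = 0.580; 0.147% called) was called. Without HRG #2 was the higher of the pair at the shared probe set, by an amount within the overlap of the arrays.

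Without HRG, both silenced groups were compared with the 6 vehicle arrays of the control cells, to see whether the unstimulated level differed. The shared GBP1 probe set read 5.72 to 5.93 with #1, against 5.94 to 6.35 in the controls, so that no #1 array reached the lowest control array. The difference was -0.36 ± 0.14 log2 units (95% interval -0.65 to -0.08, exact two-sided permutation p = 0.0238, the smallest that 3 arrays against 6 allow), and it did not pass the correction over all probe sets in limma (adjusted p = 0.278). GBP2 7917532 differed by -0.35 ± 0.12 with #1 (exact permutation p = 0.0476, adjusted p = 0.209 in limma) and overlapped the controls in range, and GBP2 7917530 differed by -0.26 ± 0.14 (adjusted p = 0.474). With #2 the shared GBP1 probe set differed by -0.13 ± 0.14 (adjusted p = 0.754), GBP2 7917532 by -0.20 ± 0.12 (adjusted p = 0.518) and GBP2 7917530 by -0.24 ± 0.14 (exact permutation p = 0.0476, adjusted p = 0.493). None of the 6 was called with #1 (0.0285% of probe sets called lower; 2 of 6 with an unadjusted p below 0.05) or with #2 (0.166% called lower; 0 of 6 with an unadjusted p below 0.05).

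Transfection itself was read from NTC against parental cells. The HRG effect on the shared GBP1 probe set was 0.15 log2 units larger in NTC cells (95% interval -0.31 to 0.62, adjusted p = 0.806), and that on GBP2 7917532 was 0.24 smaller (interval -0.65 to 0.16, adjusted p = 0.656). The level of the shared probe set differed by 0.28 with HRG (adjusted p = 0.553) and by 0.13 without it (adjusted p = 0.950). No probe set of any gene was called in these 3 comparisons (0% for the HRG effect, 0% with HRG and 0% without HRG, in limma), while 1727, 2030 and 1203 had an unadjusted p below 0.05, among them 1 of the 6 GBP probe sets each time. Those were GBP5 for the effect and with HRG, and GBP3 without HRG.

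Across all 8 groups, the means of the shared GBP1 probe set ran from NTC with HRG (9.46) and parental with HRG (9.19) to #1 with HRG (7.92), #2 with HRG (7.51), NTC vehicle (6.26), parental vehicle (6.13), #2 vehicle (6.07) and #1 vehicle (5.83). The NTC and parental HRG arrays overlapped, and each neighboring pair of vehicle groups overlapped, whereas the steps around the silenced HRG groups were free of overlap. GBP2 7917532 had the same order below the top pair, which was parental (7.44) over NTC (7.26) with HRG. Over the 24 arrays the shared GBP1 probe set and GBP2 7917532 had a Pearson's r of 0.96, and the shared one and 7917530 an r of 0.92. These arrays share the 8 treatment groups, and once each group's mean was taken off, r was 0.55 and 0.63.

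**Figure D3:**
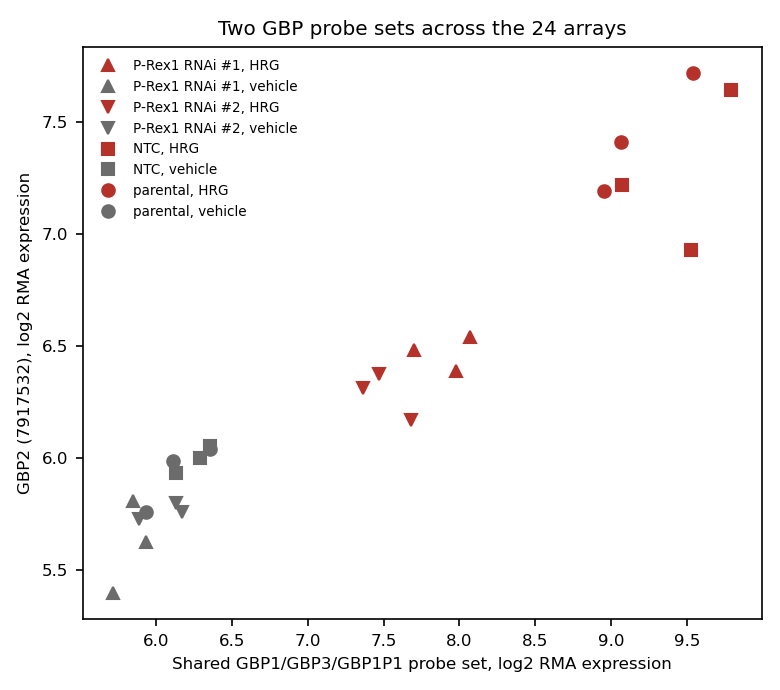
Log2 RMA expression of the shared GBP1 probe set (x axis) against GBP2 probe set 7917532 (y axis), 1 point per array, red for HRG and gray for vehicle. The 6 HRG arrays of the silenced cells (triangles) lie between the 12 vehicle arrays at the lower left and the 6 HRG arrays of NTC (squares) and parental (circles) cells at the upper right.

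The genes most like the shared GBP1 probe set, by Pearson's r over the 24 arrays, were IL6R, a cytokine receptor chain (r = 0.99), MYH9, a non-muscle myosin heavy chain (0.98), GPAT3, a glycerolipid acyltransferase (0.98), TM4SF1, a membrane protein of the tetraspanin-like group (0.98), and SH3D19, an adaptor protein (0.98). IL6R differed between HRG and vehicle by 1.51 log2 units with #1 and 1.07 with #2, and by 2.09 in NTC and 1.96 in parental cells. Those most like GBP2 7917532 were CALD1, the actin-binding caldesmon (0.97), GNG12, a G-protein gamma subunit (0.96), TNFAIP3, an inhibitor of NF-kappa B signaling (0.96), GM2A, a lysosomal lipid-binding cofactor (0.95), and PTGER2, a prostaglandin E2 receptor (0.95). The sets of 5 had no gene in common, and no interferon-stimulated gene of the lists below was in either.

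The GBP genes are usually read as markers of interferon signaling, so the other genes of that pathway were counted in parental cells, where HRG called 2.86% of probe sets higher and 2.41% lower. Of 22 measured receptors, kinases and regulators of interferon signaling, 1 rose and 1 fell with HRG. IRF1, which activates GBP genes in response to interferon-gamma, rose by 0.66 ± 0.10 log2 units (adjusted p = 1.18e-05), and IRF2, a factor known to oppose IRF1, fell by 0.79 ± 0.09 (adjusted p = 7.95e-07, limma). Without parental HRG replicate 3 the IRF1 difference was 0.53 (adjusted p = 1.17e-04), under the fold threshold, so that no gene of the list was then called higher. IFNGR1, a chain of the interferon-gamma receptor, differed by 0.37 ± 0.08 and its kinase JAK2 by 0.39 ± 0.12, with adjusted p of 9.22e-04 and 0.0185, both under the fold threshold. The interferon regulatory factor IRF9 (0.02 ± 0.16), the feedback inhibitor SOCS1 (0.19 ± 0.11) and the MHC class I activator NLRC5 (-0.03 ± 0.08) were not called. The interferon gene IFNG itself lay below the 25% quantile on all 24 arrays. The list's median was 0.02, against -0.03 over all probe sets.

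The HRG effects on IRF1 were 0.50 ± 0.10 with #1 and 0.15 ± 0.10 with #2, against 0.72 ± 0.10 in NTC and 0.66 ± 0.10 in parental cells. Its difference in effect from the controls was -0.19 ± 0.12 with #1 (adjusted p = 0.388) and -0.54 ± 0.12 with #2 (adjusted p = 0.009, under the fold threshold). IRF1 was the gene of its list called higher in parental cells, a value that also enters these comparisons. Over the 448 probe sets called higher in both controls, the median share left was also lower with #2 (54.2%) than with #1 (83.6%).

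Among 25 measured interferon-gamma-induced and antigen presentation genes, 1 rose and 0 fell in parental cells, with a median of 0.005. The riser was ICAM1, an adhesion molecule (1.07 ± 0.11, adjusted p = 6.87e-08), which is also an NF-kappa B target. The peptide transporter TAP1 (0.08 ± 0.06, adjusted p = 0.408), the light chain B2M (0.12 ± 0.05, adjusted p = 0.0874) and the immunoproteasome subunit PSMB9 (-0.39 ± 0.07, adjusted p = 7.03e-05, under the fold threshold) were not called higher.

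Of 38 measured type I interferon-stimulated genes, 2 rose and 2 fell in parental cells, with a median of 0.05. IFIT5, an RNA-binding antiviral protein, rose by 1.10 ± 0.17 (adjusted p = 3.2e-05), and the antiviral enzyme RSAD2 by 0.71 ± 0.16 (adjusted p = 0.00145). MX2, a dynamin-like antiviral GTPase, fell by 0.88 ± 0.08 (adjusted p = 1.96e-08), and IFI35 fell by 0.60 ± 0.09 (adjusted p = 1.51e-05). RSAD2 no longer passed the 1.5-fold limit when vehicle replicate 1 (0.58) or HRG replicate 2 (0.53) of the parental cells was left out, and IFI35 no longer passed it when vehicle replicate 2 (-0.52) or HRG replicate 3 (-0.55) was left out, with 1 gene still called in that direction each time. MX1, the best-known dynamin-like GTPase of this response, stood at 0.30 ± 0.32 (adjusted p = 0.565), and the ubiquitin-like modifier ISG15 at 0.02 ± 0.08 (adjusted p = 0.900).

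The NF-kappa B list had the most calls of the 6, with 6 of 28 measured genes higher, 1 lower and a median of 0.16. With 1 parental array left out at a time, the count higher ran from 4 to 6, since some calls lay close to the fold threshold. TNFAIP3 (1.41 ± 0.09, adjusted p = 1.1e-10), the upstream kinase MAP3K14 (1.17 ± 0.08, adjusted p = 6.15e-10), ICAM1 and the subunit NFKB2 (0.82 ± 0.10, adjusted p = 1.13e-06) were the 4 with the largest differences. The subunits RELA (adjusted p = 0.990) and NFKB1 (0.30 ± 0.08, adjusted p = 0.00446, under the fold threshold) were not called. TNFAIP3 had HRG effects of 0.66 with #1 and 0.21 with #2, against 1.16 in NTC and 1.41 in parental cells, and its effect was called smaller than in the controls with #1 (-0.62 ± 0.11, adjusted p = 0.011) and with #2 (-1.07 ± 0.11). With #2 the effect was also called smaller for ICAM1 (-0.79 ± 0.13) and MAP3K14 (-0.67 ± 0.10). These calls were 1 of 28 with #1 and 3 of 28 with #2, against 0.0903% and 0.613% of all probe sets called lower. The 3 genes were named for their large HRG difference in parental cells, a value that also enters these comparisons.

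Of 13 inflammasome and pyroptosis genes, the machinery GBPs are known to act on, 1 rose and 2 fell. The cytokine IL18 rose by 1.04 ± 0.11 (adjusted p = 1.82e-07), NINJ1, which ruptures membranes at cell death, fell by 0.66 ± 0.06 (adjusted p = 4.45e-08), and the pore-forming GSDME fell by 0.61 ± 0.08 (adjusted p = 2.91e-06). GSDME missed the 1.5-fold limit when vehicle replicate 2 (-0.56) or HRG replicate 2 (-0.54) of the parental cells was left out, which left NINJ1 as the only gene called lower. The pore-former GSDMD (-0.48 ± 0.08, adjusted p = 3.77e-05) and the caspase CASP4 (-0.24 ± 0.08, adjusted p = 0.0274) stayed under the fold threshold, and CASP1 lay below the 25% quantile on all 24 arrays. Of 20 other genes listed as dynamin-like or GBP-related, 1 rose (EHD2, a membrane-remodeling ATPase, 0.71 ± 0.06, adjusted p = 1.76e-08) and 1 fell (MX2).

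**Figure D4:**
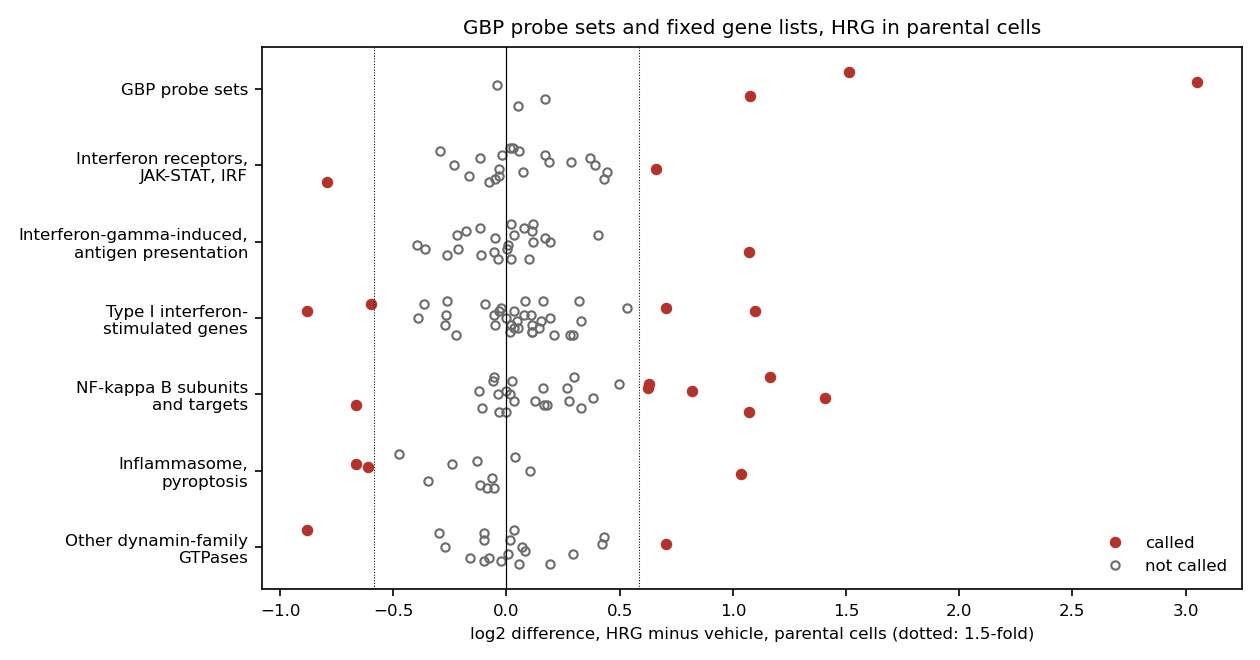
Log2 difference between HRG and vehicle in parental cells (x axis; dotted lines at 1.5-fold) for the 6 GBP probe sets and each measured gene of the 6 lists, 1 point per probe set or gene, filled where called; vertical scatter within a row only separates points. The shared GBP1 probe set at 3.05 lies beyond every listed gene, of which the furthest is TNFAIP3 at 1.41.

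Without HRG, no gene of the 6 lists was called with #1. The type I interferon-stimulated genes had a median of -0.18 with #1 and -0.24 with #2, against 0.01 over all probe sets for each, and 1 of 38 was called lower, IFITM1 with #2 (-0.68 ± 0.18, adjusted p = 0.035), a gene named after its values were seen. MX1 differed by -0.59 ± 0.28 with #1 and -0.67 ± 0.28 with #2, and IRF9 by -0.46 ± 0.14 and -0.57 ± 0.14, none of them called (adjusted p = 0.026 for IRF9 with #2, under the fold threshold). The list's median was thus lower with #2 than with #1. The vehicle level of the shared GBP1 probe set differed from the controls by -0.36 with #1 and -0.13 with #2, and that of GBP2 7917532 by -0.35 and -0.20, none of them called. Whether the interferon-stimulated genes and the GBP levels are related here was not tested.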

How the data were processed

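RNA of the 24 T-47D cultures had been hybridized to Affymetrix Human Gene 1.0 ST arrays, 1 array per culture. The authors deposited log2 expression values after RMA, which corrects background, normalizes quantiles across arrays and summarizes probes into probe sets; no software version could be read from the labels or methods. No raw scanner values were used, and array number limits the precision. All 24 value columns were matched to samples by their labels, and 0 columns of per-sample values were left unused.

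A mean per group was fitted to all 24 arrays with limma 3.58.1 (R 4.3.3), with Benjamini-Hochberg adjustment across the 21042 probe sets with a gene symbol (19292 with 1 symbol, 1750 with several; 7494 without a symbol were left out). A call needed an adjusted p below 0.05 and a fold change above 1.5. The script was tested on simulated data. The study's methods name the Rank Products test, which takes no difference of differences and was not run. Single values were compared with exact two-sided permutation tests (scipy 1.17.1), 36 in all (6 probe sets in 6 comparisons) and given unadjusted. These tests shuffled arrays without regard to replicate number. A gene with several probe sets was represented by the brightest on average. Promoter sequences came from RefSeq (GRCh38.p14).

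The family and the gene lists were chosen with earlier results of these data known. Named were the 6 GBP probe sets, PREX1, the 5 genes most correlated with the shared GBP1 and the GBP2 probe set, up to 4 called genes per list with the largest HRG difference in parental cells, and a set of interferon, NF-kappa B and inflammasome genes named whether called or not. A gene of that set is not reported here. Alternatives were other limma variance settings, probe set filters and fold thresholds, NTC or parental cells alone as control, only the groups compared, linear means, a replicate block and leaving out arrays.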

Additional observations from a re-analysis of the deposited data

How the results depend on the processing

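Over 74 results, 980 of 1030 alternatives kept the direction and side of the threshold of a tested difference, moved an untested value by less than the spread between replicates, or kept a count within 1.5 times. The variance settings, the probe set filters and the replicate block leave a log2 difference unchanged. Many of these alternatives thus could not change a direction or an untested value, and the total is no measure of robustness. No tested difference was called under any setting. Of 22 values that changed sign, 14 were tested differences, none of them called, and the others were HRG effects on GBP3, GBP4 and GBP5. The counts of listed genes called with HRG in parental cells (11 higher, 6 lower) moved with the fold threshold by construction: with no fold threshold they were 29 higher and 17 lower, and at 2-fold 5 higher and 0 lower. Without the 4 arrays that stood apart, a choice made after seeing the data, the HRG effect on GBP2 7917532 in NTC cells was 1.08 and the difference in effect between #2 and the controls was -0.67, against 1.27 and -0.87 with all arrays, and the level without HRG in NTC minus parental cells changed sign, to -0.0176 at 7917532 and -0.0769 at 7917530. With parental cells alone as control, the count of smaller HRG effects with #1 was 0, against 1, and leaving out 1 array it was 1 to 2. Leaving out 1 array at a time, the GBP2 effect in NTC cells ran from 1.08 (without NTC HRG replicate 3) to 1.43, the shared GBP1 effect in NTC cells from 3.04 to 3.40, and its difference from the controls from -1.14 to -0.94 with #1 and from -1.79 to -1.60 with #2. Sign changes came with ranges of -0.0123 (without NTC HRG replicate 3) to 0.35 for NTC minus parental cells in HRG effect at the shared probe set and -0.0286 to 0.26 at GBP2 7917530, of -0.0178 to 0.27 with HRG and -0.0769 to 0.0868 without HRG at 7917530, of -0.0176 to 0.12 without HRG at 7917532, and, for #2 minus #1 at 7917530, of -0.34 to 0.0147 in HRG effect and -0.17 to 0.18 without HRG. Counts of listed genes called in parental cells also moved with single arrays, to between 8 and 11 higher and 4 and 6 lower. Replicate numbers were not treated as pairs in the main fit. Arrays of the same number deviated together on average (mean r = 0.19 over 84 pairs, against -0.09 over 168 pairs of different number). Of those 84 pairs 66 exceeded 0.1, against 21 of the 168. Deviations from a group mean cancel within the group, which ties the pairs of different number to those of the same number. The former are thus no independent baseline. The main fit left this shared deviation in the spread, and the permutation tests took no account of it. With the replicate block, the adjusted p of the shared GBP1 probe set was 0.234 for #2 against #1 in HRG effect and 0.137 for #1 against the controls without HRG, and the block changed no call. Over all alternatives those adjusted p ran from 0.234 to 0.903 and from 0.137 to 0.776. The genes most like the GBP probe sets depended on the measure: ranked by Spearman's rho, none of the first 5 for the shared probe set was among those named. GBP3, GBP4 and GBP5 lay below the 25% quantile of every array, so their differences are limited by signal.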
